A study of Bos taurus with 46 samples.

Results

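The miRNAs of the miR-2284 and miR-2285 family were examined in bovine plasma as every name in the deposited tables that starts with bta-miR-2284 or bta-miR-2285. This rule gave 58 of 870 names, 31 of miR-2284 and 27 of miR-2285, and 626 of the 870 names were bovine and the rest human. The samples came from yearling Holstein-Friesian heifers whose oestrus was synchronised with a progesterone insert, buserelin and cloprostenol. The pregnant heifers (n = 11), inseminated with frozen semen, gave plasma on Day 16 (P16) and Day 24 (P24). The non-pregnant heifers (NP, n = 8), which were sham-inseminated, were bled at oestrus (Day 0, NP0), at Day 8 (NP8) and at Day 16 (NP16), and the NP value of a heifer combines its 3 libraries. All animals were kept on a single farm, and the pregnant group holds only inseminated heifers found pregnant by ultrasound. The design asks whether plasma miRNAs differ between pregnant and non-pregnant heifers and between days.

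A miRNA is a short RNA that pairs through its seed, the bases near its 5′ end, with messenger RNAs and lowers their translation or stability. miR-2284 and miR-2285 form a very large family known from cattle and other ruminants, with many copies spread over the genome whose mature forms are closely alike. Names within the family can therefore differ by few bases, and a short read can match several of them. Plasma miRNAs are carried in vesicles and protein complexes and come from blood cells and other tissues. As in any bulk sample, the number of cells releasing a miRNA and the amount released per cell cannot be told apart. No separate role is given here for single members of the family.

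The 46 libraries held 651408 to 5440381 miRNA reads each, with medians of 2251209 in P16, 2571078 in P24, 2761491 in NP0, 3390108 in NP8 and 2945688 in NP16. Levels are given in RPMM, the reads of a name scaled to a fixed number of mapped reads, where the divisor is every mapped read of the library and not only the miRNA reads. The P16 library of heifer 28, which the study left out, had 33.1% of its mapped reads in miRNAs, against 52.5 to 80.1% in the other libraries, and it is left out of P16 here (n = 10). As a check of the plasma label, a list of 6 erythrocyte miRNAs took a median of 21.4% of miRNA reads in P16, 26.4% in P24, 25.8% in NP0, 21.4% in NP8 and 35.3% in NP16. A list of 7 platelet miRNAs took medians of 5.93 to 8.31% and a list of 7 leukocyte miRNAs medians of 3.99 to 5% across these groups. All listed miRNAs had more than 10 reads. So low a mark cannot check the plasma label or show which cells released them, and miR-223 is on both the platelet and the leukocyte list.

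The family made up 0.611% of all miRNA reads, with 799140 reads over the 46 libraries. Of these reads 92.4% carried a miR-2284 name and 7.65% a miR-2285 name. Reads were concentrated in few names: bta-miR-2284y with 270838 reads and bta-miR-2284x with 264465 reads together held 67.0% of the family total. bta-miR-2284aa (90320 reads) and bta-miR-2284z followed, and the leading 4 names held 88.8%. By mean RPMM bta-miR-2284y ranked 52 and bta-miR-2284x 53 of the 870 names, while bta-miR-2284aa ranked 86 and bta-miR-2284z 90.

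Most members were rare. No read was found for 3 names, 8 had 10 reads or fewer over all libraries and 47 had more than 10, and 23 had a read in every library. The abundance filter, under which a name is tested if 25% or more of the libraries in any of the 5 groups have 25 RPMM or more of it, was met by 10 members. These were bta-miR-2284y, bta-miR-2284x, bta-miR-2284aa, bta-miR-2284z, bta-miR-2285y, bta-miR-2285k, bta-miR-2284ab, bta-miR-2284w, bta-miR-2285t and bta-miR-2285q. The filter passed 17.2% of the family, against 2.68% of the 149 other names from the same numbered block of cattle miRNAs (miR-2281 to miR-2489) and 46.5% of the 419 remaining bovine names. The other names of that block took 0.107% of miRNA reads, most of them from bta-miR-2419-5p with 96347 reads. The 48 members that did not pass held 1.82% of the family's reads. In the group where each was most abundant, 29 of them averaged under 1 RPMM, 13 between 1 and 5 RPMM and 6 above that. The most abundant of the 48 was bta-miR-2285aa, at 12.7 RPMM in its highest group. Among the tested members bta-miR-2285q stayed lowest, under 25 RPMM on average in every group, and is named only as low.

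**Figure D1:**
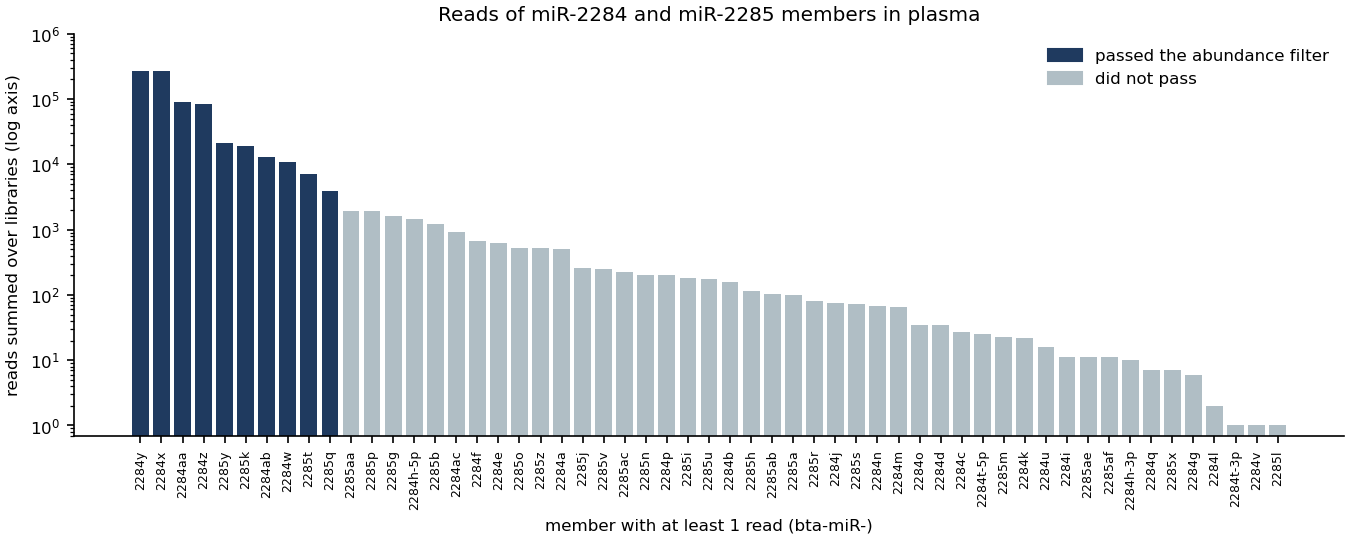
Reads summed over the 46 libraries (log axis) for each member with at least 1 read, in order of abundance, with the 10 members that passed the filter in dark blue and the others in grey. bta-miR-2284y and bta-miR-2284x stand at 270838 and 264465 reads, and the grey bars together hold 1.82% of the family total.

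Several of the abundant names were placed on the same bases of the genome by the deposited locations. In the deposited locations (UMD 3.1), bta-miR-2284y was at chr1:3474027-3474047 and bta-miR-2284x at chr1:3474029-3474049, both on the minus strand, so that they share 19 bases. bta-miR-2284aa at chr10:8792935-8792955 and bta-miR-2284z at chr10:8792934-8792955, on the minus strand, differ by a single base at one end. bta-miR-2285y was placed at chr10:8792935-8792955 on the plus strand, opposite bta-miR-2284aa. Locations also overlapped for bta-miR-2284e and bta-miR-2284f on chromosome 16, for bta-miR-2285q and bta-miR-2285z on chromosome 20, and for bta-miR-2285g and bta-miR-2285af on chromosome 10. In all, 11 of the 58 members lay in 5 overlapping groups, against 33 of the 812 other names, and these 11 names held 92.4% of the family's reads. By these locations the 10 tested members stand for 7 separate loci. No member overlapped a name from outside the family.

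The remaining tested members had a location of their own. bta-miR-2285k was at chr1:82095283-82095303 on the minus strand, bta-miR-2284ab at chr6:106089738-106089758 on the plus strand and bta-miR-2285t at chr3:8649929-8649950 on the minus strand. bta-miR-2284w was listed on an unplaced scaffold. Over the whole family the files gave 90 distinct locations, on 27 chromosomes and, for 4 of them, on unplaced scaffolds. A single location was listed for 50 members. The other 8 had several, up to 11 for bta-miR-2284v, and none of these 8 had more than 35 reads. Mature lengths ran between 20 and 23 bases.

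RefSeq places the family differently. On ARS-UCD2.0, 18.5% of the 1032 annotated miRNA genes are named as miR-2284 or miR-2285, and 57 of the 58 members matched such a gene by name. For 11 members there was more than 1 gene: bta-miR-2284y and bta-miR-2284z matched 7 genes each, bta-miR-2285k 5 and bta-miR-2284aa 4, although the deposited tables give 1 location for each of these names. The chromosome of the first deposited location was among the RefSeq ones for 37 members and not for 20, among them bta-miR-2284aa and bta-miR-2285y. Of these genes 67.0% lay inside the span of another gene, against 74.4% of the 841 other miRNA genes. MIR2284X lies inside TIAM1, which codes for an activator of the GTPase Rac, MIR2284AB inside AFF1, MIR2284W inside DOCK11, which codes for an activator of the GTPase Cdc42, MIR2285T inside FCGR2B, which codes for an inhibitory Fc receptor of B cells, and MIR2285Q and MIR2285Z inside SREK1. In RefSeq MIR2285Y overlaps MIR2284Z-6 within PLEKHA5 on chromosome 5, while the deposited overlap of miR-2285y with miR-2284z is on chromosome 10. Both annotations thus list an overlap of these names, but at different places, and RefSeq does not list the one on chromosome 10. RefSeq lists 6 overlapping pairs of genes of the family, and MIR2285Q with MIR2285Z is also among them. None joins MIR2284X with a MIR2284Y gene, or a MIR2284AA gene with a MIR2284Z gene. MIR2284E with MIR2284F and MIR2285G with MIR2285AF are not listed there either, so these overlaps rest on the deposited locations alone.

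The abundant names placed on the same bases of the same strand had nearly fixed read ratios from library to library. bta-miR-2284z had 0.930 ± 0.006 reads for each read of bta-miR-2284aa in P16 (SD, n = 10) and 0.933 ± 0.007 in P24 (n = 11), against 0.923 ± 0.016 in NP0, 0.929 ± 0.010 in NP8 and 0.925 ± 0.005 in NP16 (n = 8 each). The ratio stayed within 0.896 to 0.945 over the 45 libraries. The SD of its log2 was 0.015 over the 46 libraries, where 0.055 would be the counting noise of reads counted separately for each name. The 2 counts thus varied less against each other than separate counts of this depth would.

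For bta-miR-2284x over bta-miR-2284y the ratio was 0.992 ± 0.038 in P16, 0.971 ± 0.009 in P24, 0.973 ± 0.015 in NP0, 0.972 ± 0.013 in NP8 and 0.974 ± 0.013 in NP16. The SD of its log2 was 0.031 against a counting noise of 0.029. It rested on the P16 library of heifer 31, in which the ratio was 1.09: without that library the SD was 0.020, and also without the P16 library of heifer 10 it was 0.017. Those were the only libraries of the 46 in which bta-miR-2284x had more reads than bta-miR-2284y.

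bta-miR-2285y, on the opposite strand, followed bta-miR-2284aa less closely. Its reads were 0.233 ± 0.019 of those of bta-miR-2284aa in P16 and 0.221 ± 0.020 in P24, against 0.255 ± 0.049 in NP0, 0.236 ± 0.032 in NP8 and 0.252 ± 0.018 in NP16. The SD of the log2 ratio was 0.181, above a counting noise of 0.087. It was still below the SD of all 41 pairs of tested members from different loci, which ran from 0.358 to 0.753 with a median of 0.509.

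Among the rare members, bta-miR-2284f and bta-miR-2284e had a log2 ratio with an SD of 0.277 where counting noise would be 0.660. bta-miR-2284h-5p and bta-miR-2284a, at locations on different chromosomes, had an SD of 0.295 against 0.601. bta-miR-2285q and bta-miR-2285z, on opposite strands, had 0.551 against 0.518. Of all pairs among the 302 names with at least 500 reads and a read in every library, 17 (0.0374%) fell below their counting noise. Of these 17, 3 were among the 190 pairs of members (1.58% of those pairs). Another 10 of the 17 held bta-miR-2285o beside a name from outside the family. At such low counts the noise value is itself loose, and only 3 of the 17 pairs had a noise value under 0.1. Those were bta-miR-2284z with bta-miR-2284aa, bta-miR-2957 with bta-miR-152, and bta-miR-3596 with bta-let-7b. Whether single reads were counted under several names was not tested, since the tables hold totals per name. The share of the family drops to 0.333% of miRNA reads in P16, 0.353% in P24, 0.333% in NP0, 0.324% in NP8 and 0.294% in NP16 when only the most abundant name of each overlapping group is kept.

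**Figure D2:**
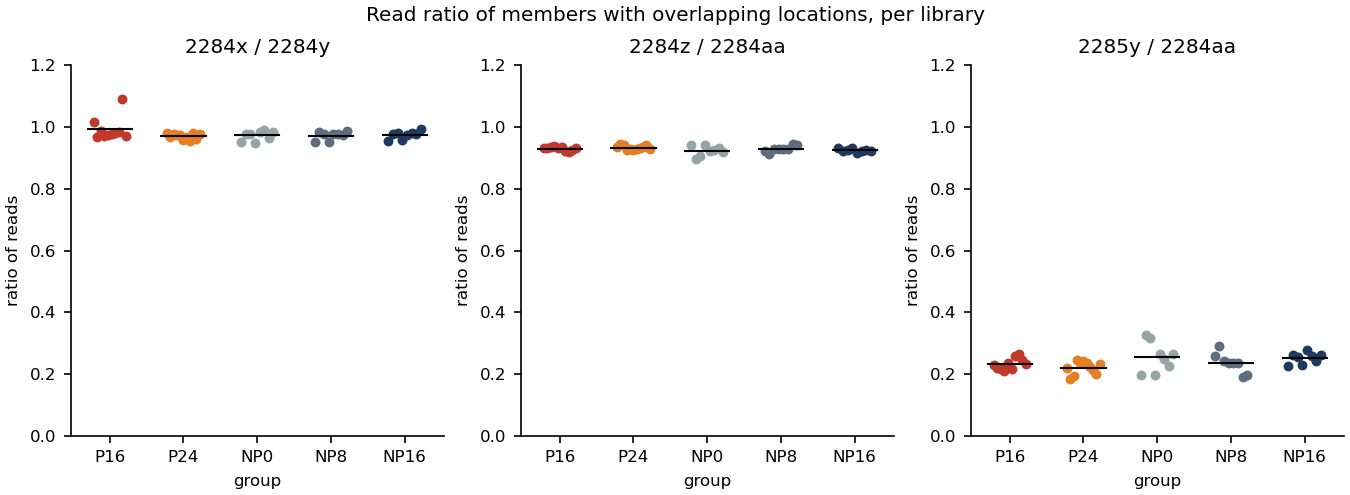
Reads of bta-miR-2284x over bta-miR-2284y, of bta-miR-2284z over bta-miR-2284aa and of bta-miR-2285y over bta-miR-2284aa in each of 45 libraries (points), by group, with the group mean as a line. The first ratio lies between 0.950 and 1.09 and the second between 0.896 and 0.945, while the third runs from 0.184 to 0.326.

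The levels of the most abundant members were close between groups. bta-miR-2284y had a lowest, median and highest library of 1125, 1407 and 1891 RPMM in P16, and of 976, 1355 and 2754 RPMM in P24. In non-pregnant heifers these values were 982, 1380 and 2068 RPMM in NP0, 944, 1396 and 1561 RPMM in NP8, and 912, 1414 and 1838 RPMM in NP16. All 5 ranges overlapped, and the highest value of all, in the P24 library of heifer 24, stood well above the rest of its group. Means were 1418 ± 236 RPMM in P16, 1508 ± 480 in P24, 1499 ± 356 in NP0, 1371 ± 189 in NP8 and 1357 ± 326 in NP16, so that the highest mean was 1.11 times the lowest. The order of the means was P24, NP0, P16, NP8 and NP16, and neighbours in it differed by less than the SD of either group. bta-miR-2284x followed the same order with means between 1323 and 1464 RPMM.

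bta-miR-2284aa varied more between heifers. Its lowest, median and highest library had 302, 445 and 930 RPMM in P16 and 326, 481 and 1133 RPMM in P24. They had 209, 449 and 634 RPMM in NP0, 253, 541 and 903 RPMM in NP8, and 244, 450 and 519 RPMM in NP16. The top of the pregnant groups was heifer 10 on both days, and all groups overlapped. Means were 470 ± 178 RPMM in P16, 525.8 ± 223.3 in P24, 441 ± 178 in NP0, 553 ± 238 in NP8 and 403 ± 103 in NP16, a ratio of 1.37 between the highest and the lowest. bta-miR-2284z had the same order of groups, and NP8 was highest and NP16 lowest for bta-miR-2285y as well.

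The less abundant members were also within a small range. bta-miR-2285y averaged 109 ± 40 RPMM in P16, 117 ± 51 in P24, 110 ± 41 in NP0, 126.05 ± 48.04 in NP8 and 102 ± 30 in NP16. bta-miR-2285k averaged 97.0 ± 24.8 RPMM in P16, 107 ± 33 in P24, 100.4 ± 33.9 in NP0, 120.3 ± 51.8 in NP8 and 89.3 ± 29.2 in NP16. bta-miR-2284ab averaged 68.3 ± 17.5 RPMM in P16, 70.6 ± 31.8 in P24, 61.2 ± 25.9 in NP0, 71.7 ± 25.9 in NP8 and 57.8 ± 14.1 in NP16. In each of these 3 the differences between group means were smaller than the SD of the NP8 libraries.

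bta-miR-2284w was the only tested member with its highest mean in P16, at 61.1 ± 17.2 RPMM, against 61.0 ± 28.1 in P24, 53.6 ± 23.8 in NP0, 54.3 ± 17.7 in NP8 and 52.8 ± 16.1 in NP16. bta-miR-2285t was the only one with its highest mean in NP0. It averaged 37.8 ± 13.1 RPMM in P16, 36.6 ± 8.8 in P24, 48.9 ± 26.5 in NP0, 38.1 ± 14.4 in NP8 and 31.5 ± 8.9 in NP16, the widest ratio between groups among the 10 tested members at 1.55. Its NP0 libraries ran from 20.3 to 92.9 RPMM and overlapped those of every other group.

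NP16 had the lowest mean of the 5 groups for 10 of 10 tested members by RPMM. The same held for 108 of all 214 tested names (50.5%), and by percent of miRNA reads for 10 of 10 members and 125 of 214 names (58.4%). By the deposited locations the 10 members stand for 7 loci. With TMM scaling the order with NP0 turned, as 9 of 10 members were positive in NP16 against NP0, while 3 of 10 were positive in NP16 against NP8. The erythrocyte list was also highest in NP16, at a median of 35.3% of miRNA reads against 21.4 to 26.4% in the other groups, and its part in these levels was not tested. The median ratio of the highest to the lowest group mean was 1.27 over the members and 1.32 over all tested names. Within groups, the median coefficient of variation between libraries was 25.5 to 38.9% for the members and 25.8 to 34.0% for all tested names. The P16 library of heifer 28 lay below every other P16 library by RPMM for 9 of the 10 members, for example at 97.4 RPMM for bta-miR-2284aa. In percent of miRNA reads its family total was 0.440%, against 0.519 to 0.879% in the other P16 libraries. By this percent it was not the lowest P16 library for bta-miR-2284y, at 0.172% against a lowest of 0.170%. The same held for bta-miR-2285k, bta-miR-2284w and bta-miR-2285t, while the remaining members were lowest in it.

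**Figure D3:**
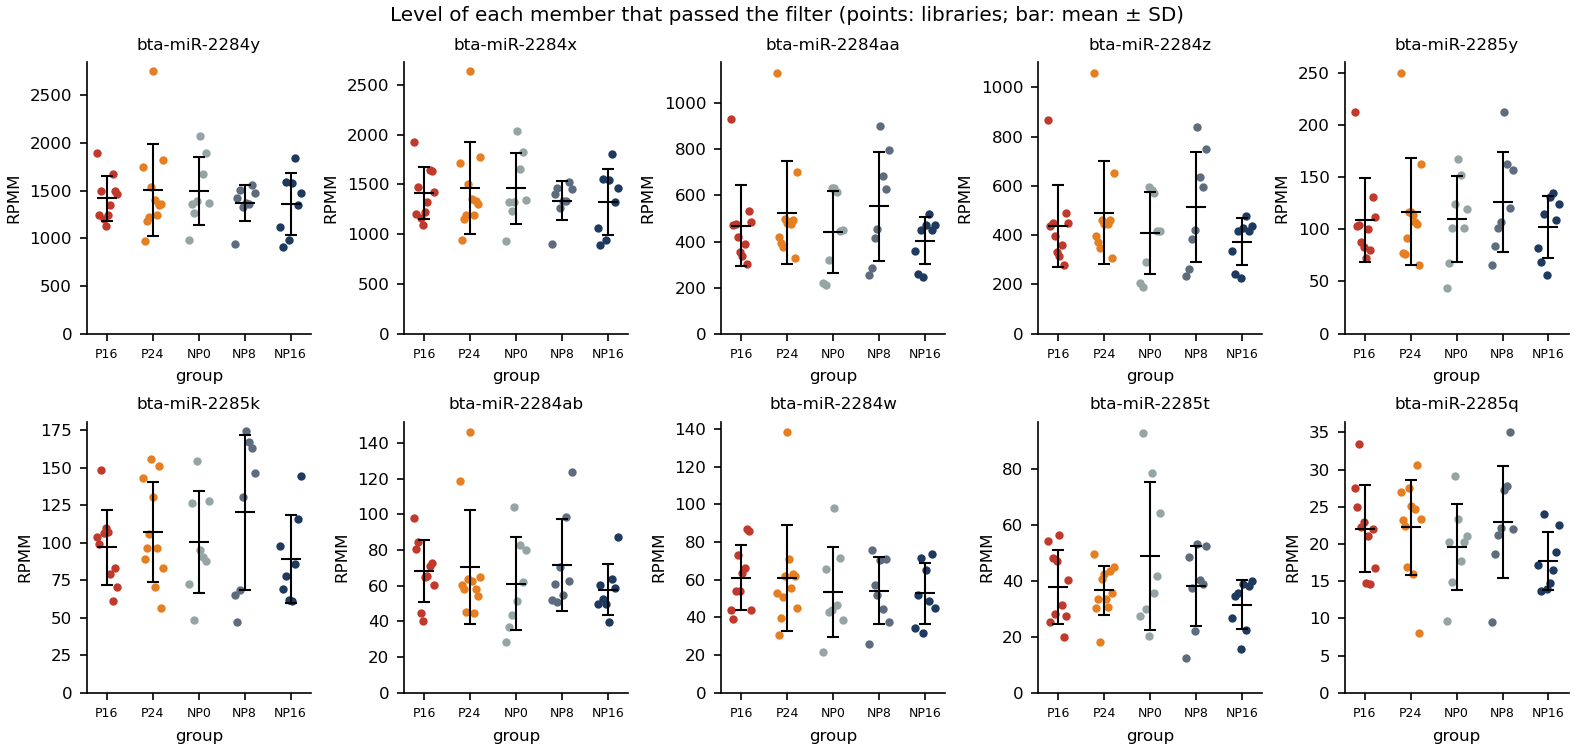
Level in RPMM of each of the 10 tested members in every library (points) by group, with mean and SD, on linear axes from 0 and without the P16 library of heifer 28. The groups overlap in every panel, and bta-miR-2284aa, bta-miR-2284z and bta-miR-2285y each have 1 high library in P16 and in P24, that of heifer 10.

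No member passed the test between pregnant and non-pregnant heifers. In P16 against NP, 0 of 10 members passed a false discovery rate (FDR) of 0.1 in the edgeR quasi-likelihood test, where 2 of 214 names did (0.935%), and 0 of 10 had an unadjusted p under 0.05, against 15 of 214 names (7.01%). bta-miR-2284y averaged 1418 ± 236 RPMM in P16 (n = 10) and 1409 ± 231 in NP (n = 8). Its log2 fold change, P16 over NP, was 0.07 ± 0.12 (SE), at an adjusted p of 0.961 in edgeR. bta-miR-2284aa averaged 470 ± 178 RPMM in P16 and 465.7 ± 151.7 in NP, with a log2 fold change of 0.04 ± 0.17 and an adjusted p of 0.974 in edgeR. The smallest p was that of bta-miR-2284w, at 61.1 ± 17.2 RPMM in P16 and 53.6 ± 17.3 in NP, with a log2 fold change of 0.26 ± 0.22, p = 0.245 and an adjusted p of 0.820 in edgeR. Without the P16 library of heifer 29 its log2 fold change was 0.12, and without NP heifer 18 it was 0.34. The median log2 fold change was 0.05 over the members and 0.01 over all tested names. The 95% interval ran from a 0.889-fold to a 1.23-fold level for bta-miR-2284y, and for every member it lay within 0.740-fold and 1.60-fold.

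In P24 against NP, 0 of 10 members passed the FDR limit, as did 0 of all 214 names (0%), and 0 of 10 members had an unadjusted p under 0.05 against 7 of 214 names (3.27%). bta-miR-2284y averaged 1508 ± 480 RPMM in P24 (n = 11) and 1409 ± 231 in NP, with a log2 fold change of 0.07 ± 0.12 and an adjusted p of 0.935 in edgeR. bta-miR-2284aa had a log2 fold change of 0.16 ± 0.18 at the same adjusted p. The smallest p, 0.367, was that of bta-miR-2284z, at 491 ± 208 RPMM in P24 and 432 ± 141 in NP, with a log2 fold change of 0.16 ± 0.18. Without the P24 library of heifer 10 the log2 fold change was 0.05 for bta-miR-2284z and 0.04 for bta-miR-2284aa. Without that of heifer 24 it was 0.02 for bta-miR-2284y. Other heifers left out gave values up to 0.23 for bta-miR-2284z, 0.22 for bta-miR-2284aa and 0.12 for bta-miR-2284y. For every member the interval lay within 0.710-fold and 1.51-fold. Both comparisons use the same NP heifers, and the pregnant heifers are also shared between them, so they are not independent.

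In P16 against NP16, 0 of 10 members and 0 of 214 names (0%) passed the FDR limit, and 0 of 10 members had an unadjusted p under 0.05 against 15 of 214 names (7.01%). The log2 fold change of bta-miR-2284y was -0.01 ± 0.14, with an adjusted p of 0.991 in edgeR. That of bta-miR-2284aa was 0.12 ± 0.16, with an adjusted p of 0.847. The smallest p, 0.173, belonged to bta-miR-2285q, which is low. For every member the interval lay within 0.790-fold and 1.46-fold. Values here depended on the scaling: 8 of 10 members were positive with TMM, the default scaling of edgeR, and 10 of 10 with library totals, which moved the median of all names by 0.18 on the log2 scale. The erythrocyte list took 21.4% of miRNA reads (median) in P16 and 35.3% in NP16, and its part in these values was not tested.

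**Figure D4:**
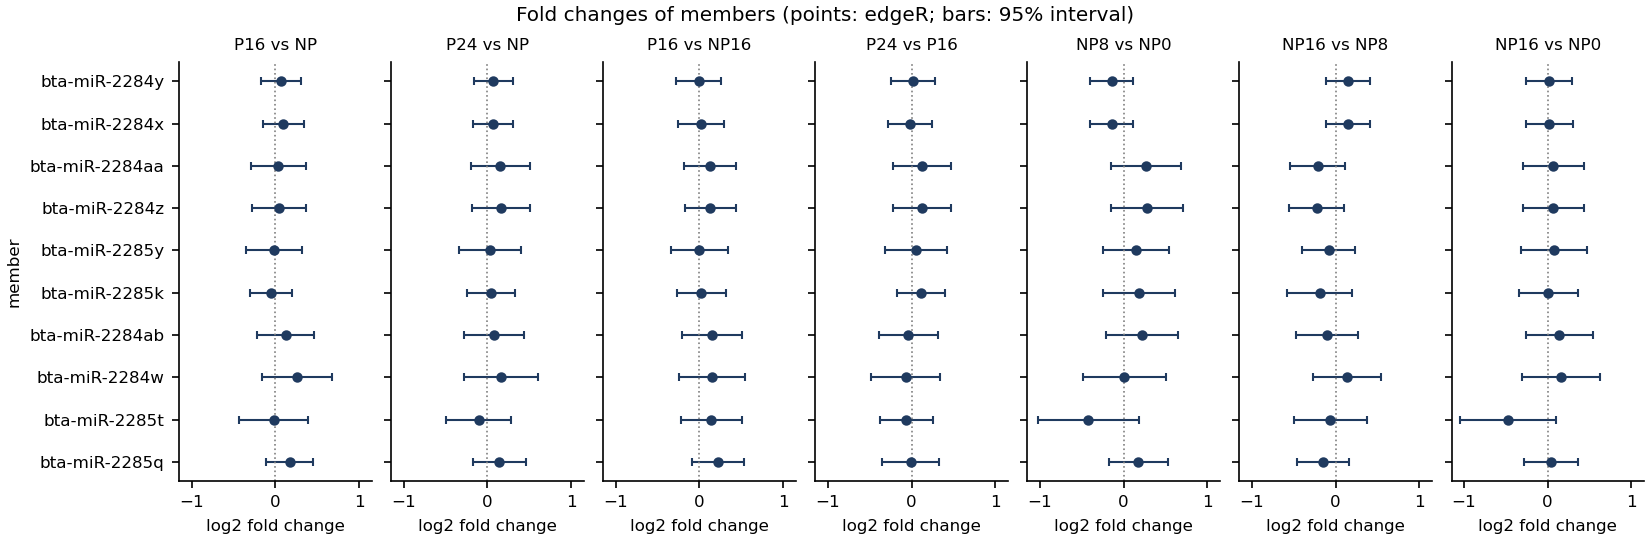
Log2 fold changes (first over second group) of the 10 tested members in the 7 comparisons as points, from edgeR, with 95% intervals as bars. Every bar crosses 0 in every panel, and the widest bars are those of bta-miR-2285t against NP0.

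Between the days of pregnancy, P24 against P16, 0 of 10 members and 0 of 214 names (0%) passed the FDR limit, and 0 of 10 members had an unadjusted p under 0.05 against 3 of 214 names (1.4%). bta-miR-2284y had a log2 fold change of 0.02 ± 0.13 and bta-miR-2284aa of 0.12 ± 0.18, both with an adjusted p of 0.999 in edgeR. The smallest p was that of bta-miR-2285k, with a log2 fold change of 0.12 ± 0.15 and p = 0.443. Without the P16 library of heifer 29 its log2 fold change was 0.05, and without the P24 library of heifer 31 it was 0.17. These fits did not pair the libraries of a heifer. With the heifer as a replicate block the smallest p in edgeR was 0.322, for bta-miR-2284z, with an adjusted p of 0.999. By RPMM bta-miR-2284y was higher on Day 24 in 5 of 10 heifers and bta-miR-2284aa in 6 of 10.

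Between the days of the cycle no member passed the test. The members of the chromosome 10 locus and those of the chromosome 1 locus had opposite signs in NP8 against NP0. They also did in NP16 against NP8 with TMM and with DESeq2 size factors, but not with library totals or in limma on RPMM. In NP8 against NP0, 0 of 10 members and 0 of 214 names (0%) passed the FDR limit, and 0 of 10 members had an unadjusted p under 0.05 against 19 of 214 names (8.88%). The log2 fold change was -0.14 ± 0.13 for bta-miR-2284y and 0.27 ± 0.21 for bta-miR-2284aa, with adjusted p of 0.673 and 0.615 in edgeR. bta-miR-2284aa was higher on Day 8 in 7 of 8 heifers by RPMM, and in 6 of 8 by percent of miRNA reads. The smallest p, 0.186, was that of bta-miR-2285t, with a log2 fold change of -0.42 ± 0.31. Without the NP0 library of heifer 18, at 92.9 RPMM, it was -0.19, and without that of heifer 21 it was -0.55. These fits did not pair the libraries of a heifer. With the heifer as a replicate block the smallest p in edgeR was 0.0586, for bta-miR-2284z, with an adjusted p of 0.440. Without single NP0 libraries the values moved to -0.07 for bta-miR-2284y (heifer 22) and 0.17 for bta-miR-2284aa (heifer 18). A difference between the 2 loci was not tested.

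In NP16 against NP8, 0 of 10 members and 0 of 214 names (0%) passed the FDR limit, and 0 of 10 members had an unadjusted p under 0.05 against 5 of 214 names (2.34%). The log2 fold change was 0.15 ± 0.13 for bta-miR-2284y and -0.22 ± 0.17 for bta-miR-2284aa, with adjusted p of 0.897 and 0.889 in edgeR. The smallest p, 0.196, was that of bta-miR-2284z, with a log2 fold change of -0.22 ± 0.17. Without the NP8 library of heifer 22 it was -0.13, and that of bta-miR-2284aa was -0.12, while bta-miR-2284y was 0.08 without the NP16 library of heifer 25. With TMM 3 of 10 members were positive, and with library totals 0 of 10, where the median of all names moved by -0.18. By RPMM, and also by percent of miRNA reads, bta-miR-2284aa was higher on Day 16 in 2 of 8 heifers. With the heifer as a replicate block bta-miR-2284z again had the smallest p in edgeR, 0.128, with an adjusted p of 0.684.

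In NP16 against NP0, 0 of 10 members and 0 of 214 names (0%) passed the FDR limit, and 0 of 10 members had an unadjusted p under 0.05 against 12 of 214 names (5.61%). The log2 fold change was 0.02 ± 0.14 for bta-miR-2284y and 0.07 ± 0.18 for bta-miR-2284aa, with adjusted p of 0.963 and 0.906 in edgeR. The smallest p in edgeR, 0.124, was that of bta-miR-2285t, with a log2 fold change of -0.47 ± 0.29 and an interval of 0.484-fold to 1.07-fold. Its RPMM was lower on Day 16 in 7 of 8 heifers. Without the NP0 library of heifer 18 its log2 fold change was -0.25. Without that of heifer 21 it was -0.64, with p = 0.0253 and an adjusted p of 0.256 in edgeR. With library totals it was -0.72, with p = 0.0342 and an adjusted p of 0.295 in edgeR. With the heifer as a replicate block bta-miR-2285t again had the smallest p in edgeR, 0.0686, with an adjusted p of 0.420. The signs depended on the scaling, with 9 of 10 members positive with TMM and 0 of 10 with library totals, where the median of all names moved by -0.23. The erythrocyte list took 35.3% of miRNA reads in NP16 (median), against 25.8% in NP0 and 21.4% in NP8, and its part in these values was not tested.

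A heifer's level on one day was compared with its level on another for bta-miR-2284y, bta-miR-2284aa and the low bta-miR-2285q, in 12 relations on log2(RPMM + 1). None passed an adjusted p of 0.1. The closest was bta-miR-2284aa on Day 8 with Day 0 of the cycle, with Pearson's r = 0.84 (exact permutation p = 0.0116, adjusted 0.139, n = 8) and Spearman's rho = 0.71 (exact permutation p = 0.0576, adjusted 0.416). Without the heifers farthest from the median on Day 0, 16 and 18, r was 0.44. Leaving out heifer 21 brought r to 0.95, with an adjusted p of 0.0262 in the permutation test. Heifers 16 and 18 had the lowest bta-miR-2284aa levels on both Day 0 and Day 8.

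For Day 16 with Day 8 of the cycle bta-miR-2284aa had r = 0.66 and rho = 0.69 (exact permutation p = 0.0883 and 0.0694, adjusted 0.275 and 0.416, n = 8), with r = 0.56 without heifers 16 and 18. For Day 24 with Day 16 of pregnancy it had r = 0.57 and rho = -0.02 (permutation p = 0.104 and 0.973, adjusted 0.275 and 0.977, n = 10). That r rested on heifer 10, which had 1133 RPMM on Day 24 and 930 RPMM on Day 16: r was -0.31 without it and -0.28 without heifers 10 and 29. For bta-miR-2284y the same days gave r = 0.06 and rho = 0.09 (permutation p = 0.867 and 0.810, adjusted 0.919 and 0.972, n = 10), with -0.07 without heifers 10 and 17. Over all 214 tested names the median r between days was 0.35 for Day 24 with Day 16 of pregnancy, 0.32 for Day 8 with Day 0, 0.29 for Day 16 with Day 8 and 0.23 for Day 16 with Day 0 of the cycle.

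**Figure D5:**
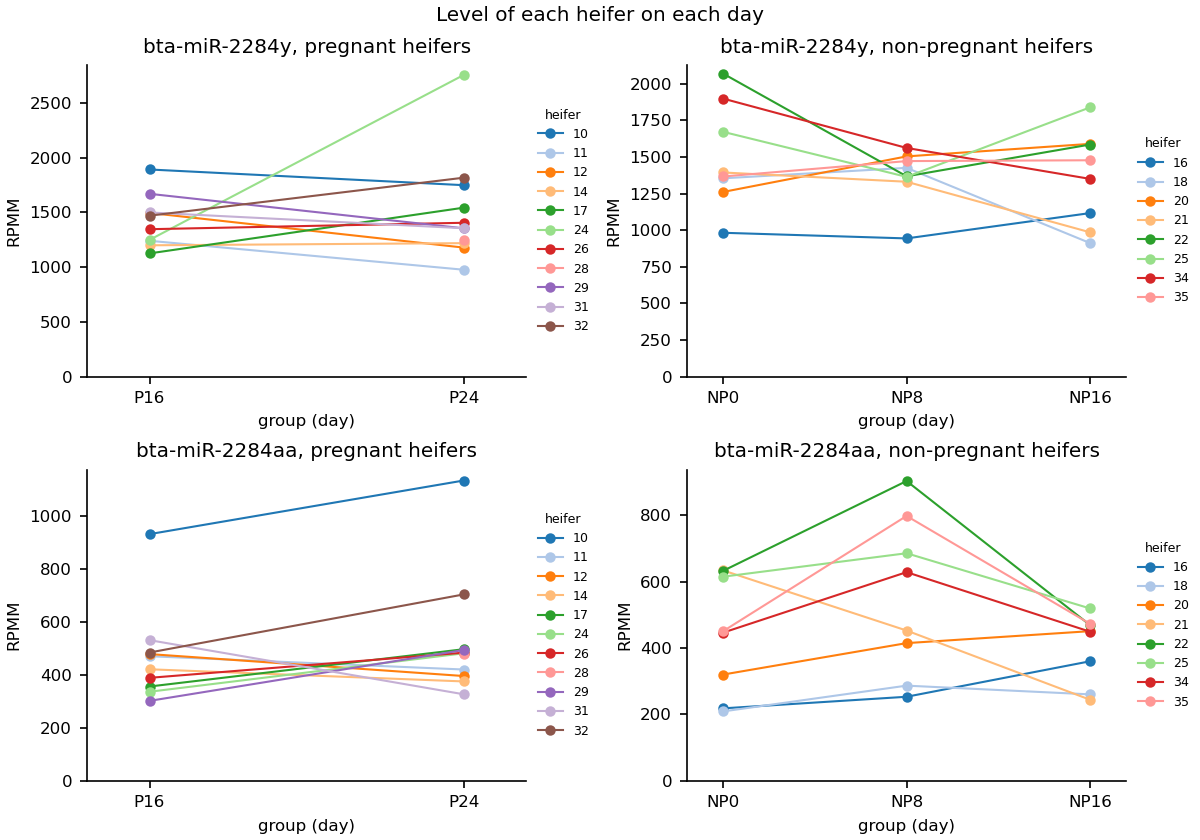
Level in RPMM of bta-miR-2284y (top) and bta-miR-2284aa (bottom) in each pregnant heifer on Days 16 and 24 (left) and each non-pregnant heifer on Days 0, 8 and 16 (right), on linear axes from 0. Lines join the libraries of a heifer: heifer 10 is highest for bta-miR-2284aa on both days of pregnancy, at 930 and 1133 RPMM, and heifer 24 is at 2754 RPMM for bta-miR-2284y on Day 24.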

How the data were processed

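Plasma RNA was extracted with TRIzol LS, and single-end small-RNA libraries were sequenced. The authors trimmed the reads, mapped them with sRNAtoolbox to the bovine genome (UMD 3.1) and assigned them to mature miRNAs of miRBase with 1 mismatch allowed. The deposited counts are whole reads per miRNA name, and the deposited RPM values (RPMM) are these counts scaled by the authors to the mapped reads of each library.

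Samples were grouped by their labels. The filter rule of the study, which drops a name if over 75% of libraries in every group are below 25 RPM, was applied here without the P16 library of heifer 28 and kept 214 of 870; the study's own set of tested names was not used. NP is the sum of counts, or the mean RPM, of the 3 libraries of a heifer. Counts were tested in edgeR 4.0.16 (TMM, glmQLFit, glmQLFTest, R 4.3.3) with Benjamini-Hochberg adjustment over the 214 names and an FDR limit of 0.1. Alternatives used DESeq2 1.42.0, limma 3.58.1 and exact permutation tests (Python 3.11.15). The fit was tested on simulated data. Correlations used two-sided permutation tests, exact for 8 heifers and with 100000 resamples for 10. Intervals of fold changes are 95% intervals from the standard error (normal approximation).

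The same number marks the same heifer on different days, so the numbers pair the samples. The main fits of the comparisons between days did not use this pairing, and the fits with a replicate block did. Deviations of a heifer from the group means had a median correlation between its own days of 0.41 for P24 and P16, 0.23 for NP8 and NP0, 0.44 for NP16 and NP8, and 0.39 for NP16 and NP0. The lowest such correlation was -0.19, for P24 and P16. The later library of a heifer matched its own earlier library best in 7 of 10 heifers for P24 and P16, and in 2 of 8 for NP8 and NP0. This held in 7 of 8 for NP16 and NP8 and in 6 of 8 for NP16 and NP0.

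Groups of names that may share reads were to be formed from mature sequences. No sequence table was used here, so they were formed instead, after seeing the data, from overlap of the first deposited location of each name on either strand. Only groups of at least 2 names were taken, and fold changes are given for the most abundant name of each, for any member past the limit and for the member with the smallest p. Counting noise is the SD expected for separate Poisson counts. RefSeq (ARS-UCD2.0) was used for names and host genes only. The members and lists were chosen with earlier results of these data known.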

Additional observations from a re-analysis of the deposited data

Results flagged for a closer look

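Within the groups of 8 to 10 heifers, 6 of 70 sets of values had a highest or lowest library that stood apart from the rest by the gap to its nearest neighbour, where chance gives about 1 in 20. The 70 sets are 14 measures in NP0, NP8, NP16, P16 and NP. They are not independent, since they include names with overlapping locations and ratios of their counts, and NP combines the 3 cycle days. The 6 results therefore cannot be judged against that rate. P24, with 11 heifers, is beyond the group size for which the gap was judged. Its highest libraries included heifer 24 for bta-miR-2284w, at 138.2 RPMM, and heifer 10 for bta-miR-2284aa, at 1133 RPMM. The NP8 library of heifer 16 was low for bta-miR-2284y, at 943.5 RPMM with the next at 1331, and for bta-miR-2284x, at 898.4 RPMM with the next at 1266. The P16 library of heifer 10 was high for bta-miR-2284aa, at 930.4 RPMM with the next at 530.6, for bta-miR-2284z, at 866.0 RPMM with the next at 491.2, and for bta-miR-2285y, at 212.6 RPMM with the next at 131.0. These 3 names overlap in their deposited locations. In the P16 library of heifer 31 the reads of bta-miR-2284x were 1.092 times those of bta-miR-2284y, with the next P16 library at 1.017.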

How the results depend on the processing

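The count of members past the limit was 0 in each of the 7 comparisons in all 199 alternative counts. Some of these applied an FDR limit of 0.05 to the main fits. The scaling and test were varied with library totals, DESeq2 size factors, DESeq2, limma at both pseudocounts and exact permutation tests. The names tested were varied with no filter, a filter at 100 RPM and 1 name per locus (chosen after seeing the data). The samples were varied by taking NP libraries as independent, keeping the P16 library of heifer 28 and using the heifer as a replicate block. Each heifer was also left out in the comparisons of pregnant with non-pregnant heifers. In the 4 comparisons of days single libraries were left out, and any other library of that heifer stayed. The smallest adjusted p of a member was 0.256, for bta-miR-2285t in NP16 against NP0 without the NP0 library of heifer 21. The fits with the heifer as a replicate block, in the 4 comparisons of days, are among the 199 counts, and the block changed no call. The smallest p of a member was lower with the block in each of these 4. It belonged to another member in P24 against P16 and in NP8 against NP0. Of 570 alternative fold changes of the members named in the comparisons, 517 kept their sign and 53 turned it, none of them past the limit, and the cause was not tested. Grouping by mature sequence was not run.

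In P16 against NP, bta-miR-2284aa was -0.0068 on the log2 scale without the filter and -0.0178 with heifer 28 kept. Leaving out single heifers gave -0.0182 to 0.1036 for bta-miR-2284y and -0.0828 to 0.0945 for bta-miR-2284aa. In P16 against NP16, bta-miR-2284y was 0.129 with library totals, 0.0849 in limma at a pseudocount of 1, 0.085 at 0.1, 0.0849 in the permutation test and 0.0146 with heifer 28 kept. Leaving out heifers gave -0.0883 to 0.0649 for it and -0.0077 to 0.1827 for bta-miR-2284aa. In P24 against P16, bta-miR-2284y was -0.0059 without the filter, -0.0147 at 100 RPM, -0.0136 with 1 name per locus and -0.0189 with heifer 28 kept. Leaving out single libraries gave -0.0538 to 0.0653 for it and -0.0017 to 0.2519 for bta-miR-2284aa. In NP16 against NP8, bta-miR-2284y was -0.007 with library totals and -0.0394 and -0.0395 in limma at pseudocounts of 1 and 0.1. In NP16 against NP0 it was -0.182 with library totals, -0.147 and -0.1471 in limma, -0.0098 at 100 RPM and -0.0078 with 1 name per locus, while bta-miR-2284aa was -0.1387 with library totals and -0.0548 in limma at both pseudocounts. Leaving out single libraries gave -0.0445 to 0.0656 for bta-miR-2284y and -0.0422 to 0.1197 for bta-miR-2284aa.

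Leaving out heifers gave 0 to 3 relations between days past an adjusted p of 0.1, with 3 reached without heifer 21. Over the heifers left out, r for Day 24 with Day 16 of pregnancy was -0.1002 to 0.4102 for bta-miR-2284y, -0.3051 to 0.7225 for bta-miR-2284aa and -0.2524 to 0.0309 for bta-miR-2285q. For Day 8 with Day 0 it was -0.0672 to 0.7457 for bta-miR-2284y and 0.7589 to 0.9545 for bta-miR-2284aa, for Day 16 with Day 8 -0.0386 to 0.1333 for bta-miR-2285q, and for Day 16 with Day 0 0.0087 to 0.8544 for bta-miR-2284aa. By percent of miRNA reads, r for Day 16 with Day 8 was -0.032 for bta-miR-2284y and -0.0212 for bta-miR-2285q. With 8 to 11 heifers a group, the intervals given above show the fold changes that remain compatible with these data. The smallest difference that could be detected was not computed. The tables hold totals per name, which do not show how reads were divided among members.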
